A study of Bombyx mori with 4 samples.

Results

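DJ-1, catalase, 2 peroxiredoxins, thioredoxin and 2 glutathione transferases were examined in the testis of the silkworm *Bombyx mori*. Members were the array probes named PARK7, CAT, PRDX2, PRDX4, TXN, GSTO1 or GSTZ1, human gene symbols assigned by sequence homology, in the rows used of the study's annotation table. Only 1999 rows were used, and 10982 more were not, so further probes or sequences of these genes may exist on the array. This gave 15 probes of 8 sequence IDs for 7 of the 838 genes named in those rows, on an array of 43803 probes. In these rows catalase was the one member with 2 sequence IDs, Ka00798 and Ka02630. The array was designed from ESTs (expressed sequence tags), and each probe is a 60-base oligonucleotide whose name is its sequence ID and a number.

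Testis RNA was taken on day 3 of the fifth larval instar from *op* and wild-type larvae, both of strain o751. The *op* mutant has translucent skin and low uric acid. No treatment was applied to either genotype. The mutated gene was not known to the study, which proposed that it might be DJ-1. Each genotype had 2 arrays, all on 1 slide, while the methods give a larger number per genotype for labeling. Neither labels nor methods say whether arrays came from different animals or from pools, so p-values measure the spread between these samples, which may be technical. Signals are given as normalized log2 values, where 0 is the 75th percentile of the array and 1 unit is a doubling. Genotypes were compared by limma over 30376 probes, those that either genotype showed well above background on both its arrays, two-sided, with Benjamini-Hochberg adjustment and a threshold of 0.05.

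Cells remove hydrogen peroxide by several routes. Catalase splits it in the peroxisome, while peroxiredoxins reduce it with a reactive cysteine that thioredoxin restores. Glutathione transferases join glutathione to reactive compounds or use it as a reductant. DJ-1 is a small protein with a cysteine that is easily oxidized, and loss of its human gene, PARK7, causes a recessive form of Parkinson's disease. Uric acid, which *op* larvae have in low amount, is itself a scavenger of oxygen radicals.

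The sequences of the 60-base array probes were not among the files used here. The study also measured the DJ-1 transcript by quantitative RT-PCR, and the oligonucleotides of that assay mark the stretch measured outside the array. They are shown as its supplementary tables give them for brain, and the main paper lists the same ones for testis and fat body. By this method the study reported significantly lower DJ-1 mRNA in *op* testis and fat body, and lower DJ-1 mRNA in *op* brain. The testis and fat body RNA was extracted separately from that of the arrays. Whether these oligonucleotides overlap the array probes was not determined.
DJ-1 forward primer: ccacgaggataatgggaaaatc
DJ-1 probe: ttgctgccatttgtgctgctccc
DJ-1 reverse primer: ccgtgggctgcaaacg

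All 15 member probes passed the filter on dim probes, and 14 were well above background on all 4 arrays. The exception was Ka01359_15 of PARK7, which was dim on 1 *op* array. None of the 15 differed between *op* and wild type at an adjusted p under 0.05 (limma, with the smallest adjusted p at 0.154), and 3 did at an unadjusted p under 0.05. Over all tested probes 0.316% were called after adjustment and 18.7% had an unadjusted p under 0.05. By the methods' t-test the counts were 0 after adjustment and 3 without it, where 13.9% of all probes had an unadjusted p under 0.05. The fitted differences ran from -0.10 to 0.99 on the log2 scale, with 10 probes higher and 5 lower in *op*, beside 53.2% of all tested probes higher. The median of the members was 0.11, and that of all tested probes was 0.032. The smallest difference called anywhere on the array was 1.74, so no probe with a difference in the range of the members was called.

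**Figure D1:**
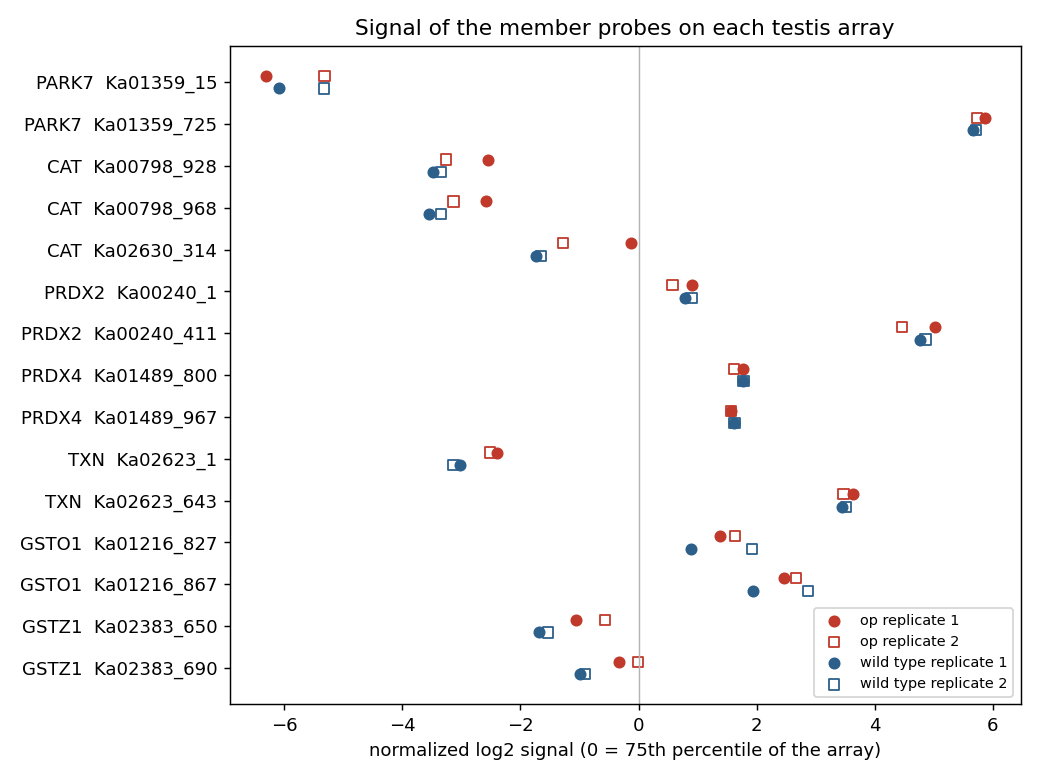
Normalized log2 signal of each member probe (x axis, 0 is the 75th percentile of the array) on each of the 4 arrays, with *op* in red, wild type in blue, filled circles for replicate 1 and open squares for replicate 2. GSTZ1, CAT and Ka02623_1 of TXN have both *op* points to the right of both wild-type points, while PRDX2 and GSTO1 overlap between genotypes.

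One DJ-1 probe was among the brightest on the array. Ka01359_725 of PARK7 had a processed signal of 29258 and 34060 on the *op* arrays, against 32313 and 30310 on the wild-type arrays, in intensity units. After normalization the values were 5.86 and 5.74 in *op*, against 5.66 and 5.72 in wild type. Both *op* values lay above both wild-type values, and 0.20 separated the highest array from the lowest. The *op* mean was 5.80 ± 0.088 (SD, n = 2) and the wild-type mean 5.69 ± 0.045, and the fitted ratio of *op* to wild type was 1.08 with a 95% interval of 0.813 to 1.43 (limma adjusted p = 0.730). This interval does not include a halving or a doubling of DJ-1 signal. The lower DJ-1 mRNA that the study reported in *op* testis by quantitative RT-PCR was not seen on this probe, and why was not tested. The difference of 0.11 shrank to 0.016 with quantile normalization, 0.015 with a shift to the array median and 0.013 with no scaling, where the genotypes overlap as the processed signals show. The probe ranked 815 of 30376 by mean signal, at the 97.3th percentile. On all 4 arrays its spot was read from the low-gain scan and scaled up, as were 1202 to 1322 probes per array, and it was not saturated.

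The other probe of the same DJ-1 sequence, Ka01359_15, was almost dark. Its processed signal was only 6.34 and 16.0 on the *op* arrays, against 9.41 and 14.3 for wild type, or -6.31, -5.32, -6.09 and -5.33 after normalization. Replicate 2 was the higher in both genotypes, and the genotypes overlapped. The fitted difference was -0.10 (standard error 0.44, limma adjusted p = 0.916), and the interval of the ratio, 0.414 to 2.09, includes a halving and a doubling. Without *op* replicate 1 the difference was 0.39 and without wild type replicate 2 it was 0.28, so this probe gives no direction.

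Catalase had the highest fitted difference of the members. Ka02630_314 of CAT had -0.13 and -1.28 in *op*, against -1.73 and -1.65 in wild type. Both *op* arrays lay above both wild-type arrays, but *op* replicate 1 stood 1.16 above *op* replicate 2, a gap larger than that of 94.9% of the tested probes. The means were -0.70 ± 0.82 (SD, n = 2) and -1.69 ± 0.054, which differ by 0.99 (standard error 0.41, limma adjusted p = 0.300), a ratio of 1.98 with an interval of 0.928 to 4.23. Without *op* replicate 2 the difference was 1.57, and without *op* replicate 1 it was 0.41. A second probe on this sequence, Ka02630_150, carries no gene name in the rows used and was not well above background on any array, with a processed signal of 2.18 to 9.74.

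The other catalase sequence had differences of the same sign at a lower brightness. Ka00798_928 of CAT had -2.55 and -3.27 in *op* against -3.48 and -3.34 in wild type. Ka00798_968 had -2.59 and -3.13 against -3.54 and -3.34. On both, *op* replicate 1 was the highest array, 0.72 and 0.54 above *op* replicate 2, which lay closer to the wild-type arrays. The differences were 0.50 (standard error 0.28, limma adjusted p = 0.412) and 0.58 (standard error 0.24, limma adjusted p = 0.298), and neither passed the threshold. Without *op* replicate 1 they were 0.14 and 0.31, without *op* replicate 2 they were 0.86 and 0.85, and with normexp background correction 0.30 and 0.32. The 3 catalase probes thus shared a high *op* replicate 1, and they are not independent measurements, since they were read from the same RNA. Whether Ka00798 and Ka02630 come from 1 gene or from 2 is not given in the sources used here.

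The peroxiredoxins differed little between the genotypes. PRDX2, named for a cytosolic peroxiredoxin that depends on thioredoxin, was bright on Ka00240_411, with 5.01 and 4.47 in *op*, against 4.76 and 4.86 in wild type. The *op* arrays lay on either side of the wild-type arrays, and the ratio was 0.952 with an interval of 0.618 to 1.47 (limma adjusted p = 0.892). On Ka00240_1 the values were 0.91 and 0.58 against 0.79 and 0.90, with a ratio of 0.931 and an interval of 0.661 to 1.31. PRDX4 is a peroxiredoxin of the endoplasmic reticulum in mammals. Ka01489_967 of PRDX4 had 1.56 and 1.57 in *op*, against 1.61 and 1.62 in wild type. Both *op* arrays were lower on it, by 0.052 on average (standard error 0.15, limma adjusted p = 0.870), with an interval of the ratio of 0.737 to 1.26. Ka01489_800 had 1.77 and 1.61 in *op*, against 1.76 and 1.78 in wild type, which overlap, with a ratio of 0.948 and an interval of 0.711 to 1.26. For both peroxiredoxins, all 4 intervals of the ratio lay between 0.618 and 1.47.

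Thioredoxin gave different answers on its 2 probes. The bright probe of TXN, Ka02623_643, had 3.62 and 3.47 in *op*, against 3.44 and 3.52 in wild type. These overlap, with a ratio of 1.05 with an interval of 0.786 to 1.40 (limma adjusted p = 0.838). The dim probe, Ka02623_1, had -2.39 and -2.52 in *op* against -3.02 and -3.13 in wild type. Here the genotypes were apart by more than the replicates of either, at -2.46 ± 0.085 (SD, n = 2) and -3.08 ± 0.078. The difference was 0.62 (standard error 0.16), with an unadjusted limma p of 0.0126 and a limma adjusted p of 0.167. With normexp background correction it was 0.36. The sign of the difference on the bright probe turned with other scalings, from 0.068 to -0.026 with a shift to the array median, -0.028 with no scaling and -4.11e-04 with quantile normalization. As a mean over both probes the difference was 0.35 (limma adjusted p = 0.332).

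The zeta glutathione transferase, GSTZ1, had the lowest adjusted p of the members, and neither of its probes passed the threshold. In mammals GSTZ1 is maleylacetoacetate isomerase, an enzyme of tyrosine breakdown that uses glutathione. Ka02383_690 had -0.33 and -0.0072 in *op* against -0.98 and -0.90 in wild type. Ka02383_650 had -1.06 and -0.57 in *op* against -1.68 and -1.53 in wild type. On both, each *op* array lay above each wild-type array, and *op* replicate 2 was the highest. The differences were 0.77 (standard error 0.18, limma adjusted p = 0.154) and 0.79 (standard error 0.22, limma adjusted p = 0.193), with ratios of 1.71 (95% interval 1.22 to 2.40) and 1.73 (1.15 to 2.60). The unadjusted limma p was 0.0103 and 0.0195. Without *op* replicate 1 the differences were 0.94 and 1.03, and without *op* replicate 2 both were smaller, at 0.61 and 0.55.

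The omega glutathione transferase, GSTO1, which in mammals reduces substrates with glutathione, was the member with the widest spread between wild-type arrays, wider than in *op*. Ka01216_867 had 2.47 and 2.67 in *op*, against 1.95 and 2.87 in wild type. Ka01216_827 had 1.38 and 1.63 in *op*, against 0.89 and 1.92 in wild type. Both *op* arrays lay between the wild-type arrays on each probe. Wild type replicates differed by 0.93 and 1.02, more than 97.8% and 98.2% of the tested probes. The ratios of *op* to wild type were 1.12 (95% interval 0.590 to 2.12) and 1.07 (0.535 to 2.16), and both intervals include a doubling. Without wild type replicate 1 the differences became -0.30 and -0.41, and without wild type replicate 2 they were 0.62 and 0.62.

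**Figure D2:**
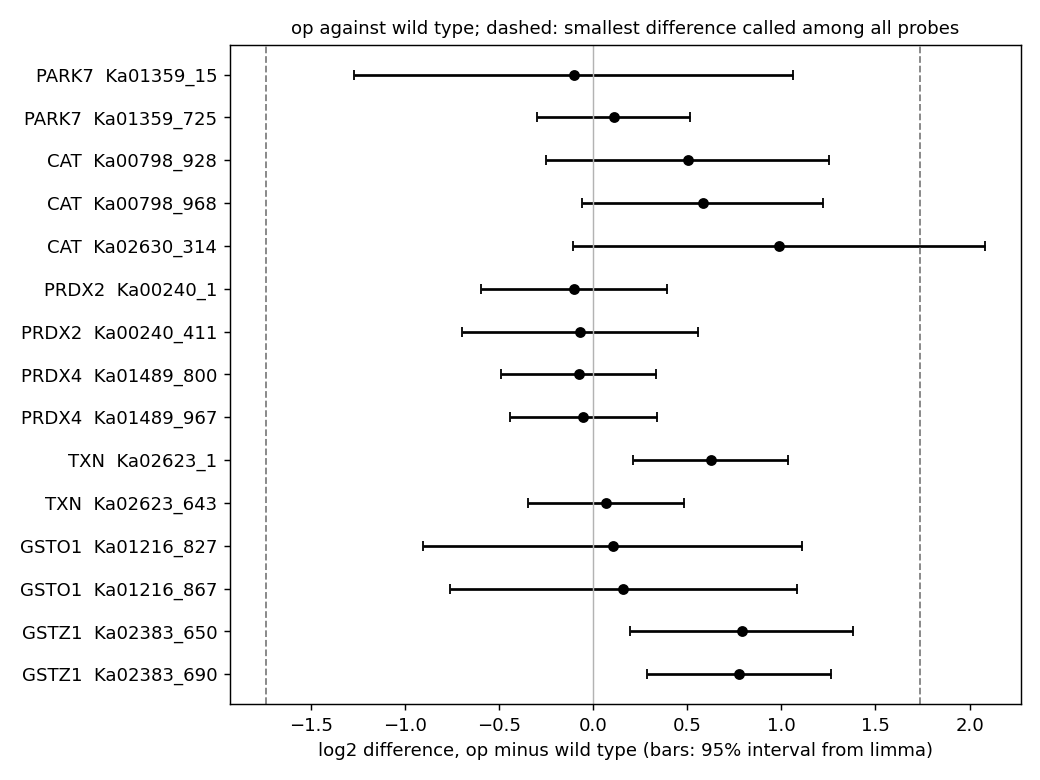
Log2 difference of *op* minus wild type (x axis) for each member probe, as points with the 95% interval from limma as bars. The dashed lines at 1.74 on either side mark the smallest difference called among all tested probes, and 1 member interval, that of Ka02630_314, crosses a line.

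In 7 of the 15 member probes both *op* arrays lay above both wild-type arrays, and in 1 both lay below. Over all tested probes these shares were 28.9% and 24.9%. The 7 were the 3 CAT probes, both GSTZ1 probes, Ka02623_1 of TXN and Ka01359_725 of PARK7, and the 1 below was Ka01489_967 of PRDX4. Counted by sequence ID, this is both catalase sequences, the GSTZ1 sequence, and 1 of 2 probes each of TXN, PARK7 and PRDX4.

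The *op* arrays differed more from each other than the wild-type arrays did in 12 of the 15 probes, and in 72.3% of all tested probes. The exceptions were both GSTO1 probes and Ka01489_967 of PRDX4. The median gap between *op* replicates was 0.32 over the members and 0.30 over all tested probes, and between wild-type replicates it was 0.10 and 0.14. A gap of more than 2-fold between *op* replicates was found for 1 member, Ka02630_314 of CAT, and between wild-type replicates for 1, Ka01216_827 of GSTO1. The direction of the *op* gap differed between members. It was *op* replicate 1 that was higher on every probe of CAT and PRDX2, and *op* replicate 2 on both probes of GSTZ1 and of GSTO1. Replicate numbers carry no order, so these gaps show only which array was higher.

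**Figure D3:**
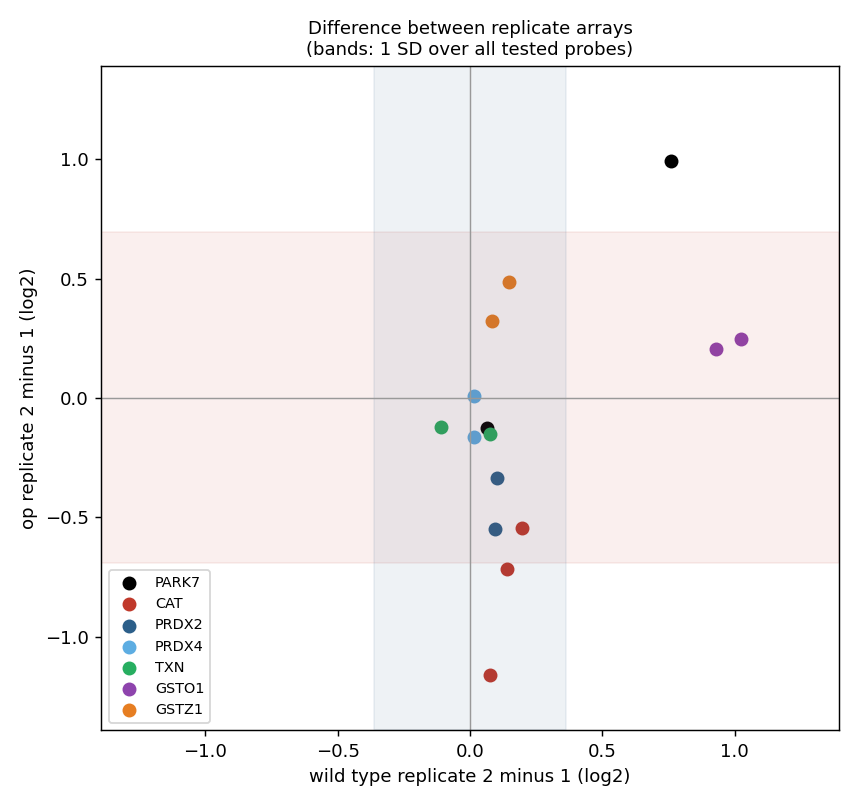
Difference between replicates 2 and 1 in wild type (x axis) and in *op* (y axis), in log2 units, with 1 point per member probe colored by gene. The bands are 1 SD of the same difference over all tested probes, 0.36 in wild type and 0.69 in *op*. Outside the bands lie 2 CAT probes at -0.72 and -1.16 in *op*, both GSTO1 probes at 0.93 and 1.02 in wild type, and the dim PARK7 probe in both.

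The probes of 1 sequence ID usually gave the same difference between genotypes. Of the 7 member sequences with 2 tested probes, 6 had probes with the same sign, against 87.9% of 6432 such sequences on the array. The log2 differences of the 2 probes lay within 0.079 of each other for Ka00798 of CAT and for PRDX2, PRDX4, GSTO1 and GSTZ1, close to the median of 0.075 for all pairs. For PARK7 they lay 0.21 apart, and 18.9% of all pairs lay at least as far apart. For TXN they lay 0.56 apart, and 4.66% of all pairs lay at least as far apart. The ID numbers of the CAT, GSTO1 and GSTZ1 pairs differ by 40. Whether the numbers are positions in bases, in which case 60-base probes 40 apart would share sequence, is not given in the sources used here.

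Brightness, in contrast, differed widely within some sequences. On the 3 arrays where both DJ-1 probes were well above background, the brighter stood 11.3 above the dimmer on the log2 scale, from 11.1 to 11.7, and none of the other pairs among the 6432 had as wide a gap on such arrays. The gap was 6.28 for TXN, reached by 108 other pairs, and 3.98 for PRDX2, reached by 364. In PARK7, TXN and PRDX2 the brighter probe had the higher number, and the numbers lay 710, 642 and 410 apart. Among the 442 pairs on the array with numbers over 300 apart, the higher-numbered probe was brighter in 81.7%, with a median gap of 2.45. Among the 3751 pairs at most 60 apart it was brighter in 54.3%, with a median gap of 0.11. Why the probes differ was not tested. Signal rank is a property of the probe as well as of its RNA, so the percentiles of the brighter probes, from 29.7 for Ka00798_968 of CAT to 97.3 for DJ-1, do not order the genes by transcript abundance. Between them in rank were Ka02630_314 of CAT at 51.4, GSTZ1 at 58.3, PRDX4 at 79.3, GSTO1 at 84.5, TXN at 90.6 and PRDX2 at 95.1.

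**Figure D4:**
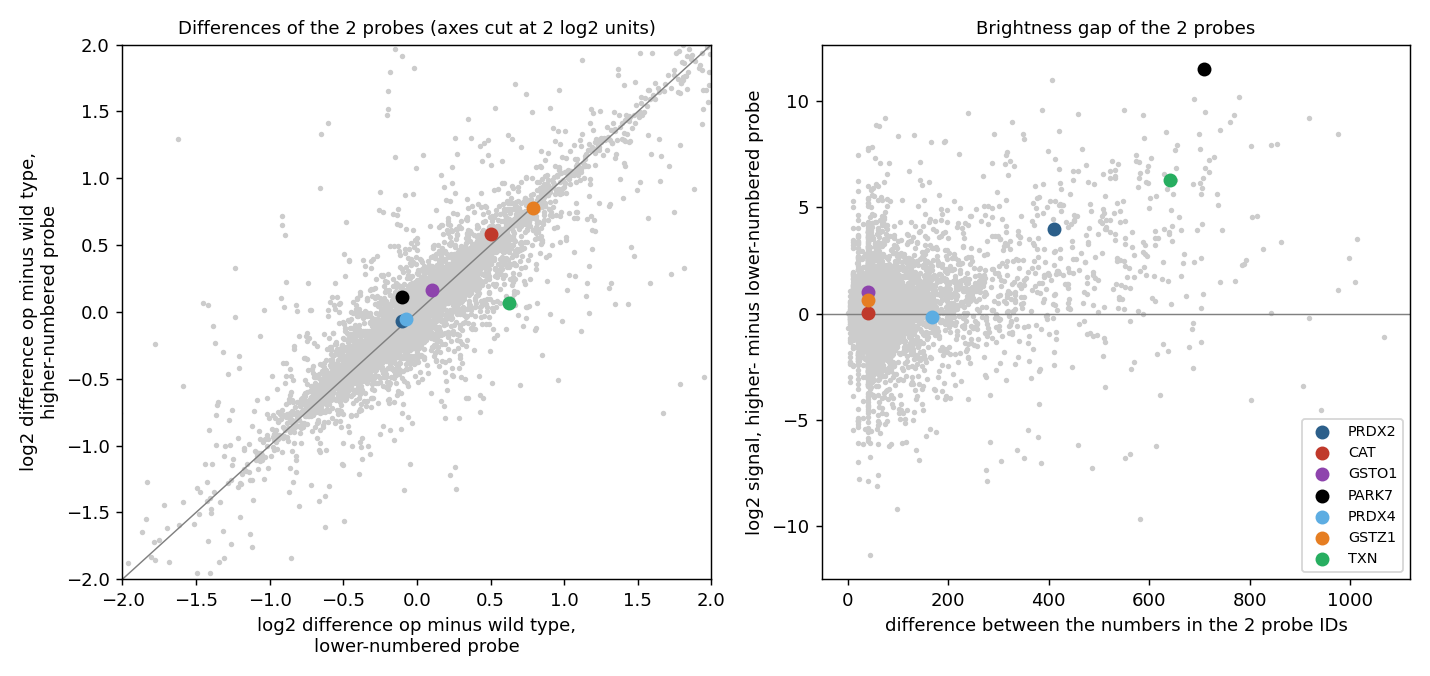
Left, the log2 difference of *op* minus wild type on the lower-numbered (x axis) and the higher-numbered (y axis) probe of each sequence with 2 tested probes. Right, the log2 signal of the higher- minus the lower-numbered probe (y axis) against the difference of their numbers (x axis), with members colored by gene and all other pairs in grey. The left axes stop at 2 log2 units on either side. TXN lies off the diagonal at 0.62 and 0.068, and PARK7 lies highest on the right at 11.5, a mean that includes 1 array on which its dim probe was not well above background.

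For comparison, a list of 25 other redox genes was taken from the same annotation rows, with 59 tested probes of 24 of them. No probe of them was called by limma in either direction, while 15 had an unadjusted p under 0.05, beside 18.7% of all probes. The methods' t-test gave 0 and 9, beside 13.9% of all probes without adjustment. Of the 59, 38 were higher and 21 lower in *op*, with a median log2 difference of 0.32. Over all tested probes 53.2% were higher in *op*, with a median of 0.032. By group, the median was -0.057 over 20 probes of thioredoxin-fold and disulfide genes. It was 0.43 over 14 probes of CTH, AHCY, MAT2A, HAGH, ESD and GDAP1, and 0.49 over 16 probes of IDH1, IDH2, ME3, NNT and TKT. It was 0.18 over 4 probes of carbonyl reductases and 0.55 over 5 probes of PXDN and OXR1. In this last group the PXDN probes were higher in *op* (0.55, 1.21 and 1.29) and the OXR1 probes lower (-0.44 and -0.37). These medians are descriptions, and several probes of a gene count several times.

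The largest positive differences in that list were those of PXDN and TXNDC17. Ka02466_788 of PXDN, a secreted peroxidase of the basement membrane, had -1.21 and -0.13 in *op* against -1.90 and -2.02 in wild type (difference 1.29, limma adjusted p = 0.209). Ka02676_812 of TXNDC17, a small thioredoxin-like protein, had -1.18 and -1.08 against -2.26 and -2.50 (difference 1.25, limma adjusted p = 0.0855). It passed the threshold with normexp background correction at 0.0427 and with a trend and robust fit at 0.0464. In those settings 414 and 464 of all tested probes were called, against 96 in the main fit. It did not pass with quantile normalization, a shift to the array median or no scaling. The largest negative differences were both of ME3, a malic enzyme that makes NADPH, at -0.80 on Ka00199_1296 and -0.57 on Ka00199_1239 (limma adjusted p = 0.170 and 0.243).

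Genes whose pattern over the 4 arrays was nearest to that of the brighter member probes were sought among the 1789 or 1790 tested probes named for other genes, by Euclidean distance of mean-centred values. With 4 arrays this is a description of these arrays only. The nearest to DJ-1 was Ka01605_285 of PSMC5, a proteasome ATPase, at a distance of 0.026, and for TXN it was Ka01109_665 of YWHAZ, a 14-3-3 protein, at 0.0088. For the CAT sequences they were Ka02514_1651 of MAT2A at 0.051 and Ka01779_726 of SLC25A1 at 0.27, and for GSTZ1 it was Ka01728_730 of ETFA at 0.032. They were Ka02714_1464 of ARPC1B for PRDX2 and Ka01588_613 of HACL1 for PRDX4, at 0.049 and 0.022. The values were not scaled, so a probe that varied little lies close to other such probes, and the distances do not rank the pairs. Over the 4 arrays the probe of DJ-1 ranged by 0.20, that of TXN by 0.18 and that of PRDX4 by 0.17. The ranges were 0.98 for GSTZ1 and 1.60 for Ka02630_314 of CAT.

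The tissue and other cell types were described with markers, which are again names by human homology. All 12 probes of 6 germline and testis genes were tested, and none was called. On each array 10 to 12 of them were well above background, as were 67.8% to 72.3% of all probes. The probes of AURKC and DYNLRB2 and Ka00803_758 of DAZAP1 were dim, at signal percentiles from 1.80 to 11.4. The summed signal of the 12 probes, in multiples of the array's 75th percentile, was 263.1 and 206.4 in *op*, against 224.7 and 249.3 in wild type, which overlap. TUBA3D, an alpha-tubulin, made up 89.3% to 92.1% of each sum, and without it the sums were 20.7 and 21.1 in *op*, against 24.0 and 24.2 in wild type. The 5 probes of muscle genes (TNNT3, TPM2 and TMOD1) summed to 3.95 and 5.34 in *op* against 0.725 and 2.18 in wild type. Of these, 4 were tested, and all 4 were higher in *op* with a median log2 difference of 1.95, none called and 4 at an unadjusted limma p under 0.05. The 8 probes of blood cell and basement membrane genes summed to 1.63 and 3.14 in *op* against 0.885 and 0.823, and all 8 were higher in *op* with a median of 1.32, none called and 8 at an unadjusted limma p under 0.05. PXDN is in both this list and that of redox genes. Over all tested probes 18.7% had an unadjusted limma p under 0.05, and 53.2% were higher in *op*. The sum of 10 digestive hydrolase genes was 13.7 and 14.3 in *op* against 14.1 and 14.9 in wild type. Of its 20 tested probes the brightest were those of MEP1B. The differences of these 20 ran from -2.58 to 1.94, with 7 at an unadjusted limma p under 0.05 and none called. Within *op*, replicate 2 minus replicate 1 ran from -1.09 on PNLIP to 2.69 on CHIA. CHIA and PNLIPRP1 were higher in replicate 2, and PNLIP was higher in replicate 1. The near-equal sums thus do not hold for each gene. Both GSTZ1 probes and the muscle sum had the same order over the 4 arrays. The basement membrane sum shared it within *op*, with replicate 2 above replicate 1, but not within wild type, and CAT had the opposite order within *op*. These orders are of rank only. Between wild type replicates 1 and 2 the muscle sum went from 0.725 to 2.18. The GSTZ1 probes Ka02383_690 and Ka02383_650 differed there by 0.084 and 0.15 on the log2 scale. The part of these cell types in the member differences was not tested. In whole-tissue RNA, fewer cells of a type and less RNA per cell cannot be told apart.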

How the data were processed

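Testis RNA, labeled with Cy3, was measured on 1-color arrays of 60-mer probes, with 2 arrays per genotype. The authors read the spots with Agilent Feature Extraction 9.5, and the deposited intensity values are background-subtracted and not scaled between arrays. The deposited normalized log2 values, shifted per array and centred per probe by the authors, were used as an alternative. Here the log2 processed signal was shifted to the 75th percentile of each array. Spots of controls were omitted, as were outlier spots (2 to 4 an array), and no probe was saturated. Well above background were 67.8% to 72.3% of probes per array. Genotypes were compared with limma 3.58.1 in R 4.3.3. The fit was also run on simulated data, with changes larger than any member difference. That run gives no measure of power for differences of the members' size. Precision is limited by the number of arrays. With 2 against 2, the smallest p of an exact permutation test is 0.333.

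The members and gene lists were chosen with earlier results of these data known. Of the annotation table, 1999 rows were used and 10982 were not. Its column of the authors' own comparison was not used. Every member probe is named, as are the 2 probes with the largest positive and the 2 with the largest negative difference among the other redox genes, and the probe nearest in pattern to the brighter probe of each member sequence, of which 1 is not reported here. The alternatives were normexp (offset of 50, on the spot median, as no spot mean was used), 3 other scalings, the deposited values, 2 other filters, a replicate block, a fit with trend and robust moderation, the methods' t-test, a mean over the probes of each sequence ID, and leaving out each array.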

Additional observations from a re-analysis of the deposited data

How the results depend on the processing

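The count of member probes past the threshold was 0 in each alternative except those that left out an array, where it ran from 0 to 2. It was out of 15 probes, but 14 with the filter on all 4 arrays and 8 sequence means. Of the 224 combinations of a member probe and an alternative, 210 kept the direction, 14 turned it, and 3 were past the threshold. These 3 were both GSTZ1 probes without *op* replicate 1 and Ka02630_314 of CAT without *op* replicate 2, where only wild type could give a spread, which was taken to hold for the remaining *op* array too. The probes of CAT and GSTZ1, Ka02623_1, Ka01359_725 and Ka01489_967 were never turned. Over all alternatives Ka02383_650 and Ka02383_690 of GSTZ1 ran from 0.55 to 1.03 and from 0.61 to 0.94, and Ka02630_314 from 0.41 to 1.57. Ka01359_725 of DJ-1 ran from 0.0023, its value in the mean with the dim probe, to 0.17, with 0.013 to 0.016 under the 3 other scalings.

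Ka01359_15 of DJ-1 turned to 0.13 with normexp and to 0.0023 as a mean over its sequence ID, and Ka02623_643 of TXN turned to -4.11e-04 with quantile normalization, -0.026 with a shift to the median and -0.028 with no scaling; the cause was not tested. Leaving out each array in turn gave -0.60 to 0.39 for Ka01359_15, -0.0078 to 0.14 for Ka02623_643, -0.27 to 0.064 for Ka00240_1 and -0.34 to 0.20 for Ka00240_411. It gave -0.16 to 0.0037 for Ka01489_800, -0.41 to 0.62 for Ka01216_827 and -0.30 to 0.62 for Ka01216_867.

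Of the other redox probes, 0 of 59 passed the threshold, against 1 with normexp, 1 with a trend and robust fit and, with single arrays left out, 0 to 10, of which 10 was without *op* replicate 1 and 8 without *op* replicate 2. The replicate block gave 0 member probes and 0 of the other redox probes; same-numbered arrays share only a number, and their deviations had a correlation of -0.030 across probes. Over all probes the 96 calls became 716 with the replicate block, 414 with normexp, 464 with the trend and robust fit, 45 with no scaling, 15 with quantile normalization, 54 with probes well above background on all 4 arrays, and 0 with no filter and with the methods' t-test. Leaving out *op* replicate 1 or 2 gave 2412 or 2367, and leaving out wild type replicate 1 or 2 gave 56 or 33. The signal of Ka01359_15 was below the lowest well-above-background signal on 1 *op* array, so a lower level there was not detectable.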
